A study of Homo sapiens with 7 samples.

Results

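The genes described here are 9 members of the MYC network of transcription factors: MYC, MYCN, MAX, MLX, MXD1, MXI1, MXD3, MXD4 and MNT. They were listed by name as members of a known family, 9 of the 26175 genes with an FPKM value, and the rule that selects them uses no measured value. A gene TSS was taken for a member when it was called on the strand of the gene, inside its locus widened by 1000 nts, which gave 8 of the 10391 gene TSSs of the study.

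The cells were T-47D by the labels and T47D/A1-2 by the study's methods, a derivative of a human breast cancer line that overexpresses rat glucocorticoid receptor and carries an integrated MMTV luciferase reporter. All samples shared 1 growth condition, in which cells grown with 10% serum were moved to 5% charcoal-stripped serum for at least 24 hours, so the data compare genes and positions and not treatments. Start-seq, which reads the capped 5´ ends of short nuclear RNAs, gave TSS positions from replicate 1 of 2 libraries, and RNA-seq gave 1 FPKM per gene (fragment count scaled by transcript length and by mapped fragments, so that genes of unequal length can be compared) over 3 merged replicates. All values describe a single derivative of a cancer line. No value therefore has an error between replicates, no test of a difference between genes could be run, and the depth behind a call is unknown. Whether neighbours in the order of levels differ beyond their spread cannot be judged for the same reason, and with 1 condition no gene could be named for a pattern like that of a member. All 10 luminal breast epithelial markers were at FPKM 44.1 to 1142. The basal markers KRT5 and KRT14 were listed at 0 and TP63 at 0.517, and of the fibroblast, endothelial and leukocyte markers COL1A1 alone, at 8.82, passed FPKM 1.

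MYC proteins are basic helix-loop-helix leucine zipper factors that bind the E-box CACGTG as heterodimers with MAX and activate genes of growth and metabolism. MXD proteins and MNT compete for MAX, bind the same letters and recruit SIN3 and histone deacetylases, which repress. MLX is a partner related to MAX that pairs with some MXD proteins, with MNT and with the glucose-responsive Mondo factors, and MYC itself is a frequent oncogene of breast cancer.

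The order of steady-state mRNA put the shared partners above MYC. MLX had the highest FPKM of the 9 genes at 53.9, followed by MXD4 at 50.2 and MAX at 37.8. MXD3 followed at 12.8, MXI1 at 9.25, MYC at 8.58 and MNT at 6.51. The lowest were MXD1, the antagonist known from differentiating cells, at 1.97 and MYCN, the paralog known from neural tissue and neuroblastoma, at 0.0636. Of the 9 members, 8 reached FPKM 1, as did 46.9% of all genes. The median FPKM was 9.25 over the members and 0.528 over all genes, of which 7888 were listed at 0. Over genes at FPKM 1 or more the median was 14.4. It was 16.5 over protein-coding genes with a gene TSS within 1000 nts of an annotated start.

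**Figure D1:**
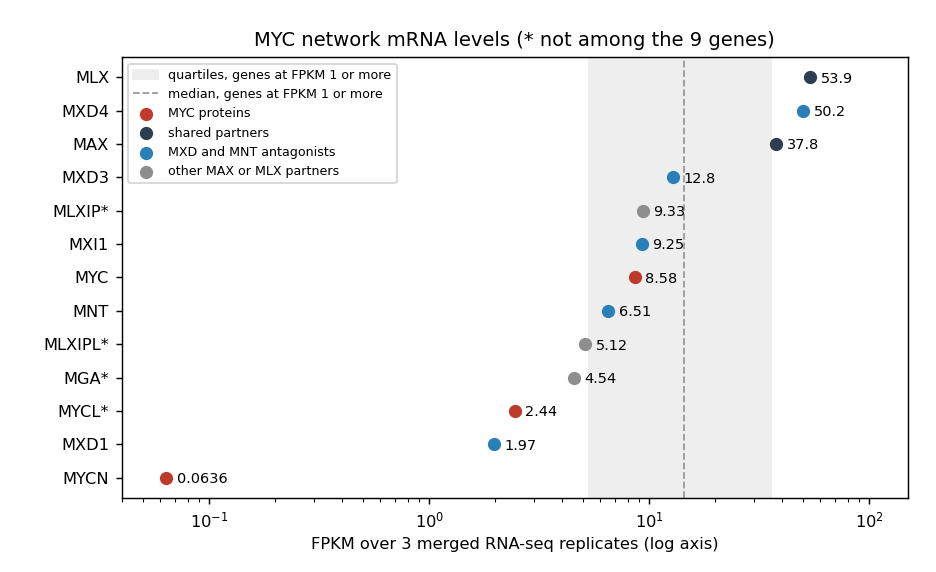
FPKM over 3 merged RNA-seq replicates (log axis) of the 9 genes and of 4 further network genes, with 1 point per gene and no error bars because replicates were merged. MLX, MXD4 and MAX, at 37.8 to 53.9, lie above the quartile range of genes at FPKM 1 or more (5.34 to 36.0), and MYC lies inside it at 8.58.

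MYC, the activating member with the widest tissue range, had an FPKM above that of 70.1% of all genes. Among genes at FPKM 1 or more, however, MYC stood above only 36.2%, and its level was below their median of 14.4. MYCN was 0.00742 times MYC, and no gene TSS was called for it. MYCL, the remaining MYC paralog and not one of the 9 genes, was at FPKM 2.44 with a called gene TSS. MYC thus had the highest FPKM of the 3 paralogs.

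MAX, the obligate partner of MYC, had 4.41 times the FPKM of MYC and stood above 88.9% of all genes. The FPKM of MAX was 42.4% of the summed FPKM of MYC and the 5 antagonists, all of which bind MAX. The summed FPKM leaves out MYCN, MYCL and MGA, which also bind MAX. These are mRNA levels, and amounts of protein or of dimers were not measured. MLX was at 6.29 times MYC and 1.42 times MAX. The Mondo partners of MLX, MLXIP (MondoA) and MLXIPL (ChREBP), were at FPKM 9.33 and 5.12, so that MLX was at 3.73 times their sum. That sum leaves out MNT and the MXD proteins that also pair with MLX, so it does not cover all MLX partners. MGA, a large MAX-binding repressor, was at 4.54. The loci of MAX and MLX overlap other listed genes, among them RAB15 at FPKM 51.6, CHURC1 at 48.9 and FNTB at 15.9 for MAX and PSMC3IP at 25.1 for MLX. The RNA-seq libraries were strand-specific by the study's methods, but the strand setting of the FPKM estimate was not given in the sources used here, so levels of overlapping genes are uncertain.

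The 5 antagonists summed to an FPKM of 80.7, which was 9.42 times MYC. MXD4 alone made up 62.2% of that sum and was at 5.86 times MYC. The sum without MXD4 was 3.56 times MYC, and the median antagonist, MXI1, was level with MYC at 1.08 times. MXD3, an antagonist known from S phase, was at 1.49 times MYC, and its locus overlaps PRELID1, which was at FPKM 57.1. MNT, an antagonist known for its expression in most tissues, was at 0.760 times MYC and MXD1 at 0.230 times. The highest antagonist had 25.5 times the FPKM of the lowest, so the 5 did not share a level.

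Start-seq placed 1 gene TSS at each of 8 members and none at MYCN (8 of 9 genes; exact Clopper-Pearson 95% interval 51.8% to 99.7%, which covers counting error only). This interval and the later ones treat members as independent draws, which a named list of related genes is not. They are not tests. Over the protein-coding genes of the FPKM table, 54.8% had a gene TSS on their own strand by the same rule. Like 8056 of all 10391 gene TSSs, the 8 gene TSSs of the members stood alone, none being within 5000 nts of a further gene TSS. The nearest was 5039 nts away, at MLX. The widened loci also took in 3 gene TSSs on the opposite strand, the starts of CHURC1 and FNTB in the MAX locus and of PRELID1 in the MXD3 locus, and these were not counted for the members.

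Most members started where the annotation starts them. The gene TSSs of MXD1, MXD4, MLX and MNT lay 1 nt upstream, 7 nts downstream, 13 nts downstream and 21 nts upstream of the canonical transcript start, respectively. That of MAX lay 29 nts downstream of the canonical start and exactly at the start of another annotated transcript.

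Among the antagonists, 2 departed from the annotation, MXI1 and MXD3. The MXI1 gene TSS was 2219 nts downstream of the canonical start, inside an intron of 2 transcripts and 407 nts upstream of the nearest transcript start. The MXD3 gene TSS lay in no annotated transcript, 1148 nts upstream of the canonical start and 289 nts upstream of the nearest one. These were also the members whose promoters were poorest in CpG.

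In hg19 the 60 nts around the gene TSS, on the strand of the gene with the base before the TSS and the TSS base in capitals, were as follows for 7 members. They are shown because a pyrimidine followed by a purine at these 2 bases is the usual minimal initiator, and because they cover the annotated and the displaced starts.
MAX, chr14:65569197-65569256, minus strand: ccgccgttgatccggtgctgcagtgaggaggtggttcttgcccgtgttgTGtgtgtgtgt
MLX, chr17:40719081-40719140, plus strand: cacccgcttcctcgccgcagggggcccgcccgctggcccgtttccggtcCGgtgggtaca
MXD1, chr2:70142190-70142249, plus strand: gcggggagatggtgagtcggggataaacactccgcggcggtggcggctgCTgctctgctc
MXI1, chr10:111969532-111969591, plus strand: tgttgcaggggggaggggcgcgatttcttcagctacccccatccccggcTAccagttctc
MXD3, chr5:176740038-176740097, minus strand: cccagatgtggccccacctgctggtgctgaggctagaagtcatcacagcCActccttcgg
MXD4, chr4:2263820-2263879, minus strand: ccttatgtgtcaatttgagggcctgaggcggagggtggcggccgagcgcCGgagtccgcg
MNT, chr17:2304366-2304425, minus strand: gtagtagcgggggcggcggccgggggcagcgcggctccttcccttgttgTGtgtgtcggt

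A pyrimidine followed by a purine stood at 7 of the 8 gene TSSs, against 66.1% of all gene TSSs, and the exception was MXD1, which reads CT. MXD3 alone matched the longer initiator CANA or CANT at the start, which 18.8% of all gene TSSs matched. GGGCGG, the GC box bound by SP1-like factors, lay within the 100 nts upstream of MLX, MXD1 and MNT, 3 of 8 members against 50.2% of all gene TSSs. CCAAT, bound by NF-Y, lay in the same window at MLX, MXD1 and MXD4, 3 of 8 members against 18.7%. Both strands were searched for GGGCGG and CCAAT, and a match is a description of letters and not a bound site.

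At 4 of the 8 gene TSSs there was a CACGTG, the E-box that the network itself binds, within 500 nts (50%, exact 95% interval 15.7% to 84.3%), against 20.9% of all gene TSSs. They were MAX, MLX, MXD4 and MNT, and the 30 nts around E-boxes of each are shown in hg19 on the strand of the gene, with the E-box in capitals. CACGTG reads the same on both strands.
MAX, chr14:65569567-65569596, minus strand: tccagctccctcCACGTGtcctgtcttccc
MLX, chr17:40719056-40719085, plus strand: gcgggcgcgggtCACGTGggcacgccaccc
MXD4, chr4:2264057-2264086, minus strand: gggccgggccacCACGTGctgttgctaagc
MNT, chr17:2304530-2304559, minus strand: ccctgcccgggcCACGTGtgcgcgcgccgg
MNT, chr17:2303922-2303951, minus strand: aacaacagagagCACGTGgtgagcggccgg

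Counted with the gene TSS as +1, the first bases of the E-boxes shown were at -378 in MAX, at -63 in MLX, at -245 in MXD4 and at -172 and +437 in MNT. The E-boxes shown are not every one in these windows, and no order of distance between genes is read from them. The +437 E-box is formed by the last 6 bases of exon 1 of MNT. The 4 genes with an E-box here held both shared partners and, of the 5 antagonists, the highest in FPKM (MXD4) and the next to lowest (MNT). At distances beyond 500 nts, further E-boxes began at -779 in MAX, -823 in MXD1, -807 in MXI1 and +766 in MXD3, the last being 383 nts upstream of the canonical MXD3 start. With windows of 1000 nts on each side the count was 7 of 8 against 32.9%, and MYC was the member without one. With the variant CACGCG counted as well, within 500 nts, it was 7 of 8 against 51.9%. Over all gene TSSs, 21.5% of those rich in CpG and 17.2% of the others had a CACGTG within 500 nts.

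**Figure D2:**
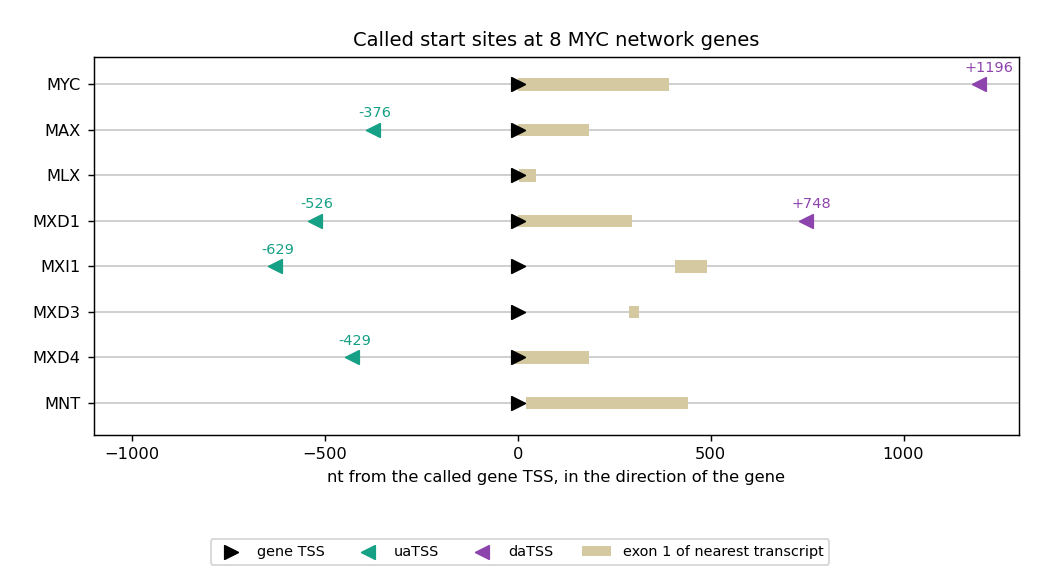
Called gene TSS (black), uaTSS (green), daTSS (purple) and exon 1 of the nearest annotated transcript (tan) at 8 genes, in nts from the gene TSS. The 4 uaTSSs lie 376 to 629 nts upstream, and the exons of MXI1 and MXD3 begin 407 and 289 nts downstream of their called gene TSSs.

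Antisense initiation was called upstream of 4 of the 8 gene TSSs (50%, exact 95% interval 15.7% to 84.3%), against 53.1% of all gene TSSs. An upstream antisense TSS (uaTSS) is the start of a divergent, usually short-lived RNA on the opposite strand within 1000 nts. Among gene TSSs that stood alone by this measure, as all 8 members did, 58.5% had a uaTSS. MAX had one and 3 of the 5 antagonists had one, MXD1, MXI1 and MXD4. MYC, MLX, MXD3 and MNT had none. The count of members was thus near the background. It did not follow FPKM among the members, since MLX at 53.9 lacked a uaTSS and MXD1 at 1.97 had one. Over all gene TSSs the share with a uaTSS was 44.1% at FPKM 1 to 5, 54.6% at 5 to 20 and 56.4% at 20 to 60.

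The uaTSSs of the members were far from their gene TSSs. They lay 376 nts upstream in MAX, 429 nts in MXD4, 526 nts in MXD1 and 629 nts in MXI1. The median over the 4 was 477.5 nts, whereas the median of all uaTSSs was 200 nts with quartiles of 127 and 329.5 nts. All 4 distances were above the upper quartile, and 3 of 4 were over 400 nts, against 17.2% of all uaTSSs. As percentiles of all uaTSS distances they stood at 80.2 (MAX), 85.2 (MXD4), 90.7 (MXD1) and 93.9 (MXI1). The uaTSS distance was not among the planned results, and with 4 distances this is a description of these genes.

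The uaTSS letters are shown for the same reason as the gene TSSs, 30 nts in hg19 read on the antisense strand, with the base before the uaTSS and the uaTSS base in capitals. The MXD1 daTSS described next is added.
MAX uaTSS, chr14:65569562-65569591, plus strand: ctgctgggaagacaggacaCGtggagggag
MXD4 uaTSS, chr4:2264238-2264267, plus strand: gaggaagcgcagcgcgcggGGaccgcccgc
MXD1 uaTSS, chr2:70141705-70141734, minus strand: ctgggcggcgctgattcacCAgccgctgcg
MXI1 uaTSS, chr10:111968944-111968973, minus strand: cttttcacagctattattcTGaggacggtg
MXD1 daTSS, chr2:70142979-70143008, minus strand: tcacgcagcctgggtttccCActggctaca

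A pyrimidine then purine stood at the uaTSSs of MAX, MXD1 and MXI1 but not of MXD4, and 64.7% of all uaTSSs had one. The MAX uaTSS fell inside the E-box that begins at -378, so that antisense RNA was called to start at the fourth base of the 6 as read on its own strand. Such a coincidence occurred at 21 of 5519 uaTSSs (0.381%), a share over all uaTSSs, with or without a CACGTG nearby. The overlap at MAX was not among the planned results and is a description of this gene. The uaTSSs of MAX and MXD4 lay in no annotated transcript. That of MXD1 lay in an intron of an MXD1 transcript that starts farther upstream. The MXI1 uaTSS lay in an intron of 2 MXI1 transcripts and 604 nts upstream of an annotated lncRNA start on its own strand.

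Downstream antisense TSSs (daTSSs), on the opposite strand within 2000 nts downstream of the gene TSS, were called at MYC and MXD1. These were 2 of 8 members (25%, exact 95% interval 3.19% to 65.1%), against 28.4% of all gene TSSs and 32.9% of those standing alone. The MXD1 daTSS lay 748 nts downstream, in intron 1, with exon 1 ending 295 nts from the gene TSS. It matched CANA or CANT, as did 25.5% of all daTSSs, with the letters shown above. MXD1 was the single member with both antisense calls (1 of 8, against 17.5%), and MLX, MXD3 and MNT had neither (3 of 8, against 35.9%).

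**Figure D3:**
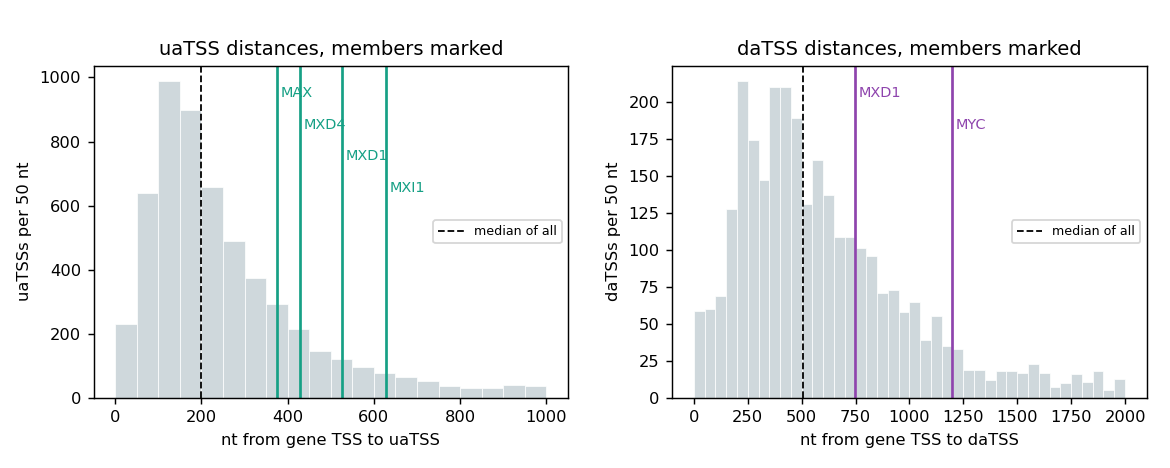
Number of uaTSSs (left) and daTSSs (right) per 50 nts of distance from the gene TSS over all calls, with the members drawn as lines and the median of all calls dashed. The 4 uaTSS lines lie at 376 to 629 nts, right of the median of 200 nts, and the 2 daTSS lines at 748 and 1196 nts lie right of the median of 507 nts.

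The MYC gene TSS was on the plus strand of chromosome 8 at position 128748477 of hg19, exactly at the canonical transcript start and 392 nts before the end of exon 1. MYC was the only member with TATAA or TATAT between 35 and 24 nts upstream, 1 of 8 against 3.0% of all gene TSSs. Its daTSS was at 128749673, 1196 nts downstream in intron 1. It was 1 of 2 members' daTSSs over 1000 nts, against 15.2% of all daTSSs, whose median was 507 nts, and stood at percentile 91.2 of their distances. This daTSS lies on the strand of CASC11, a long noncoding RNA gene, 1560 nts downstream of an annotated CASC11 start and inside a CASC11 intron. The MYC daTSS had no pyrimidine then purine at its start, as 66.9% of all daTSSs did, and no CANA or CANT. No uaTSS was called at MYC.

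Most promoters of the members were of the common CpG-rich type, and MXI1 and MXD3 stood apart within 250 nts of the gene TSS. The window of 250 nts on each side of the gene TSS was CpG-rich, with GC at 50% or more and over 0.6 times the CpGs that its C and G content predicts (the CpG ratio), at 6 of 8 members against 87.0% of all gene TSSs. GC content was 75.2% at MXD4, 71.7% at MLX, 67.9% at MXD1, 66.5% at MNT, 65.3% at MAX, 64.7% at MYC, 63.5% at MXI1 and 55.3% at MXD3, and the median of all gene TSSs was 66.7%. MXD4 was thus above 85.8% of gene TSSs and MXD3 above 10.4%. The CpG ratio was 0.978 at MXD4, 0.926 at MNT and 0.905 at MLX. It was 0.823 at MYC, 0.818 at MAX and 0.688 at MXD1. MXI1 at 0.575 and MXD3 at 0.314 fell below 0.6, and these are the members whose called gene TSS departs from the annotated start. With 500 nts on each side, 7 of 8 members were CpG-rich, against 85.4% of all gene TSSs.

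Profiles in 100-nt bins showed where each promoter was richest. At MXD4, all 20 bins within 1000 nts were at 60% GC or more, whereas at MYC 8 bins were. The mean of all gene TSSs peaked at 68.2% in the 100 nts upstream, and MLX had its highest bin there too, at 78%. The highest bins of 5 members began farther downstream, 300 nts from the gene TSS at MXI1 (78%), 400 at MXD4 (88%), 500 at MNT (81%), 600 at MXD1 (79%) and 700 at MXD3 (75%). Those of MYC (74%) and MAX (83%) began 200 and 300 nts upstream. At MXD1 the GC content was 79% in the bin from 600 nts, 55% in the bin from 700 nts, which holds the daTSS, and 37% in the next. At MAX a similar step, from 73% to 37% at 800 nts downstream, had no daTSS called at it. At MNT a single bin, from 100 nts downstream, was at 34%.

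**Figure D4:**
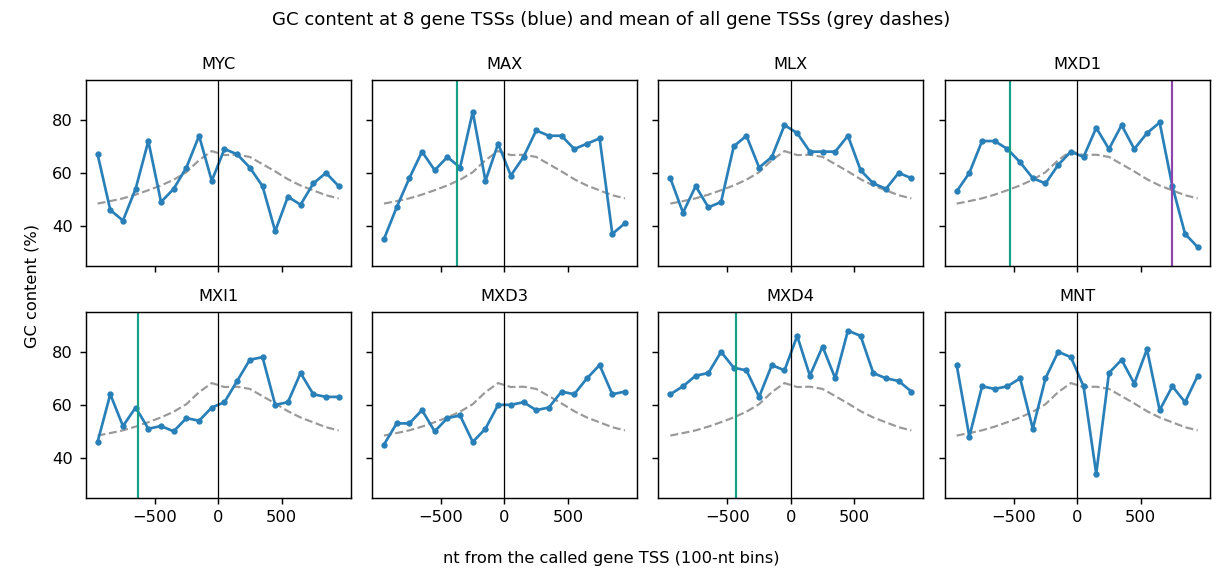
GC content (%) in 100-nt bins from 1000 nts upstream to 1000 nts downstream of 8 gene TSSs (blue) with the mean over all gene TSSs (grey dashes), the uaTSS in green and the daTSS in purple where called within 1000 nts. MXD4 lies above the mean in every bin plotted, from 63% to 88%, and MXD1 drops from 79% to 37% across its daTSS.

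Around the antisense calls themselves, the mean over all uaTSSs had 12.0 percentage points less GC in the 500 nts downstream, in the direction of antisense transcription, than in the 500 nts upstream. The members with a uaTSS were at -6.20 (MAX), -0.200 (MXD4), 2.20 (MXD1) and 9.20 (MXI1) percentage points. None dropped by as much as the mean, and MXD1 and MXI1 had a gain. Over all daTSSs the mean change was a gain of 10.4 points. MXD1, where GC content went from 36.8% to 72.8%, gained 36.0 points, and MYC was at -6.00.

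The pathway around the network was described by lists of its partners and targets, whose gene TSSs were counted within 1000 nts of an annotated start, where 52.2% of protein-coding genes had one. Shares over all gene TSSs, as given above, were 53.1% with a uaTSS, 28.4% with a daTSS and 20.9% with a CACGTG, and the counts of each list are to be read against them. The other bHLH leucine zipper factors, which also bind E-boxes but do not pair with MAX, had a median FPKM of 36.3 over 9 genes, 7 of them at FPKM 1 or more. SREBF1 and SREBF2, which drive lipid and sterol synthesis, were at 79.3 and 69.4, and USF2 at 41.2. TFEC was listed at 0 and MITF was at 0.425. Of these 9 genes 8 had a gene TSS and 7 a uaTSS, 5 of them over 400 nts away, against 17.2% of all uaTSSs. None had CACGTG within 500 nts.

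The SIN3 and HDAC corepressors that MXD proteins and MNT recruit were all at FPKM 1 or more (14 of 14), with a median of 18.3 and a range from 4.81 to 232.6. The histone-binding RBBP7 was at 232.6, the deacetylase HDAC1 at 139.9 and BRMS1 at 88.5. Of the 14 genes, 13 had a gene TSS, and 6 of these had a uaTSS, 5 a daTSS and 2 a CACGTG. The uaTSS and CACGTG counts were below the shares over all gene TSSs and the daTSS count was above, each on few genes. Among the 18 MYC cofactors, 17 reached FPKM 1, with a median of 17.8. The highest were subunits of chromatin complexes, ACTL6A at 161.5, RUVBL2 at 112.0 and RUVBL1 at 86.6. BIN1, a MYC-interacting adaptor, was at 0.453. Of these genes 15 had a gene TSS, 10 a uaTSS, 6 a daTSS and 5 a CACGTG.

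The 15 genes that act on MYC protein stability were all at FPKM 1 or more, with a median of 25.7. The ubiquitin ligase STUB1 was at 140.0, the phosphatase subunit PPP2CA at 77.6 and the kinase AURKA at 61.4. All 15 had a gene TSS, 9 had a uaTSS, 3 a daTSS and 3 a CACGTG, which for uaTSS and CACGTG is near 53.1% and 20.9%. The 26 E-box genes known as MYC targets had a median of 92.3, the highest of the 10 lists plotted by FPKM, and 25 of them were at FPKM 1 or more. ENO1 and LDHA, enzymes of glycolysis, were at 711.7 and 298.3, and the transferrin receptor TFRC at 300.2. TERT was the exception at 0.163. A CACGTG lay within 500 nts of a gene TSS for 21 of the 25 targets with a gene TSS, a list named for its E-boxes, so that this count is no independent finding. Of the same 25 genes 16 had a uaTSS and 10 a daTSS.

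MondoA and MLX targets, genes of glucose and lipid use, had a median FPKM of 7.31 with 5 of 8 at FPKM 1 or more. FASN was at 193.8, TKT at 174.2 and TXNIP, the best known MondoA target, at 51.4. ARRDC4 at 0.709, ACACB at 0.422 and PKLR at 0.0132 were under 1. Of the 8 genes 4 had a gene TSS, 1 a uaTSS, 1 a daTSS and 2 a CACGTG. The 4 network genes outside the members, MYCL, MGA, MLXIP and MLXIPL, were all at FPKM 1 or more. Of these, 3 had a gene TSS, MLXIPL had a uaTSS 96 nts upstream, and MLXIP had a CACGTG.

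**Figure D5:**
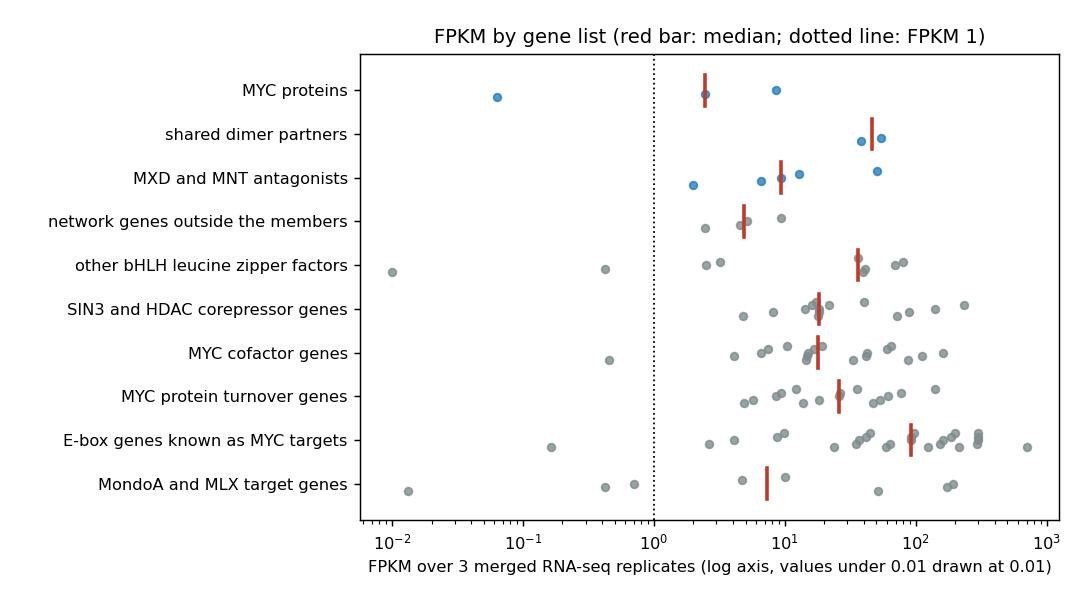
FPKM over 3 merged RNA-seq replicates (log axis, values under 0.01 drawn at 0.01) of each gene in 10 lists, with the list median as a red bar and FPKM 1 dotted. The first 3 lists, in blue, hold the 9 members and MYCL, and the targets named for E-boxes have the highest median, at 92.3.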

How the data were processed

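TSS calls of Start-seq replicate 1 and RNA-seq levels were analysed. The MNase-seq and FAIRE-seq samples and the second Start-seq library were not used here. The authors called gene TSSs, uaTSSs and daTSSs from uniquely mapped 5´ ends in hg19, with a threshold of 5 reads for every class. They also removed daTSS calls that could be the start of another gene or the uaTSS of an uncalled gene TSS. The deposited calls are single positions whose score is 0 in every line, so no counts or depth could be taken. The deposited FPKM values were estimated by the authors with Cufflinks over 3 merged replicates. The submitters' processing notes name Bowtie 0.12.8, TopHat2 2.0.4, Cufflinks 2.2.1, Picard 1.118 and cutadapt 1.2.1. The RNA-seq libraries were paired-end and strand-specific. The strand setting of Cufflinks was not given in the sources used here, and 0 columns of other per-sample values were present.

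Own-strand calls inside each locus widened by 1000 nts were joined by their shared identifier. Gene lists were counted by calls within 1000 nts of an annotated transcript start. Sequence came from GRCh37, which has the chromosome sequences of hg19, and gene models from GENCODE release 44 lifted to GRCh37. A pseudocount of 0.1 was added before taking log2 FPKM, and intervals of shares are exact (Clopper-Pearson) at the 95% level. Motif search and percentile steps were tested on simulated data with known answers, and base composition on a constructed sequence. Python 3.11.15, numpy 2.4.6, scipy 1.17.1, pandas 2.3.3 and matplotlib 3.10.9 were used.

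The rule for the members uses no measured value, but the members and lists were proposed with earlier results of these data known. Named were the 9 members, MYCL, MGA, MLXIP and MLXIPL, the 3 genes of highest FPKM and every gene under FPKM 1 of each other list, and genes with a gene TSS within 5000 nts of a member's. Genes sharing a locus and CASC11 were named after their values were seen. Alternatives changed the locus, isolation of the gene TSS, daTSS range, FPKM minimum, pseudocount, background, antagonist sum, motif window and CpG thresholds, and 3 were added after the data were seen. An item at a member's promoter is not reported here.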

Additional observations from a re-analysis of the deposited data

How the results depend on the processing

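Of 23 alternative settings, 11 kept the reported value and 12 moved it, where a count was taken as kept within 1.5 times and any other value, which has no spread to set a tolerance, as moved by any difference. Among the counts kept, 7 members passed an FPKM of 5 (35.7% of all genes) and 7 were CpG-rich within 500 nts (85.4% of gene TSSs). Without widening the locus, 5 members had a gene TSS, against 45.0% of protein-coding genes. With daTSSs up to 1000 nts, 1 member had one, against 24.1%. The median log2 FPKM of the members was 3.23, with -0.67 over all genes, and became 3.36 with a pseudocount of 1 and 3.46 over members at FPKM 1 or more. Their median percentile was 71.0 among all genes and 38.1 among genes at FPKM 1 or more. It was 34.1 among protein-coding genes with a gene TSS within 1000 nts of an annotated start. The antagonist sum relative to MYC was 9.42, and 3.56 without MXD4 or 1.08 for the median antagonist. CACGTG was found at 7 members within 1000 nts and at 7 with CACGCG included. The median percentile of uaTSS distances, which was not a planned result, was 87.9. It was 87.5 against isolated and 88.5 against CpG-rich gene TSSs. Both of these backgrounds were chosen after seeing the data, as was the 250-nt upstream window for CACGTG. The cause of each move was not tested beyond the change of setting itself. The merged FPKM and the single library of calls give no spread between replicates, and leaving out a replicate was not possible. No paired analysis was possible because the FPKM column merges its replicates and the TSS calls come from 1 library.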
